A study of Mus musculus with 2 samples.

Results

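The data described here are the ATAC-seq regions of 10 genes of NF-kappaB signalling and cell adhesion in mouse liver. In ATAC-seq a transposase inserts sequencing adaptors where chromatin is open, so reads accumulate at accessible DNA. The genes were taken as a list by symbol, namely *Nfkb1*, *Nfkb2*, *Rela*, *Relb*, *Nfkbia*, *Nfkbiz*, *Tnfaip3*, *Tnfrsf1a*, *Icam1* and *Vcam1*. A region belonged to the gene whose transcription start site (TSS) the authors' table gave as the closest. By this rule 39 of the 69549 distinct regions belonged to 9 of the 10 genes, and no region had *Vcam1* as its closest gene. Of these regions, 9 were promoter regions, centred within 1 kb of the TSS, and they covered 8 genes. The other 30 regions lay farther away. *Nfkb1* had only regions of the second kind.

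The study compared Mettl3 flox/flox mice with Mettl3-HKO mice, which carry the same floxed alleles together with Alb-Cre+/-. *Mettl3* encodes an RNA methyltransferase, and the albumin promoter drives Cre in hepatocytes, so the other cells of the liver keep the gene. All mice were on the C57BL/6 background, ate normal chow and were 8 weeks old. Livers of 4 mice per genotype were pooled into 1 library, so no comparison has a replicate check. These are called the control and the knockout library.

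NF-kappaB is a family of dimeric transcription factors. In resting cells inhibitor proteins hold the dimers in the cytoplasm. Ligands such as TNF activate a kinase complex that leads to the destruction of the inhibitors, the dimers enter the nucleus, and among the genes they switch on are those of their own inhibitors, of chemokines and of adhesion molecules. In the liver the pathway is known both for inflammation and for the protection of hepatocytes from TNF-induced death.

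The library totals were 52826202 reads for the control and 58038305 for the knockout, of which 31.7% and 22.3% lay in regions. Log2 ratios, knockout over control, are given on the scale of these totals, with 1 read added to each count. On this scale the median of all regions was −0.38, and a ratio relative to that median is the log2 ratio with this shift taken out. Intervals in parentheses are 95% Clopper-Pearson intervals of the log2 ratio. They cover counting error only and compare the libraries, not the genotypes. At the promoter of the targeted gene, *Mettl3*, counts were 566 and 392 (control, then knockout, as in every pair of counts given here). This promoter lies outside the floxed exons and does not check the labels. In pooled tissue, fewer cells of a type and less open chromatin per cell cannot be told apart. Positions are on GRCm38.

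The promoter sequences are shown first because 6 of the 10 genes had a promoter window in the RefSeq table (GRCm38.p6), each from 250 bases before a start to 50 after it. The windows of *Icam1*, *Nfkb2*, *Nfkbia*, *Rela* and *Tnfaip3* lay wholly inside the promoter region of the gene in the ATAC-seq table, and that of *Tnfrsf1a* shared 239 of its 300 bases with it. *Nfkb1*, *Nfkbiz*, *Relb* and *Vcam1* were not matched. NF-kappaB dimers bind kappaB sites, which commonly have a run of G at their start and of C at their end. The sequences are the bases upstream of the RefSeq gene for the 5 members with at least 100 of them, 5′ to 3′ on the strand of the gene. Capitals mark every match, on either strand, to the kappaB decamer (GGG, 5 bases of any kind, CC) or to GGAANNTCC, and overlapping matches run together.
Icam1, chr9:21015690-21015939, plus strand: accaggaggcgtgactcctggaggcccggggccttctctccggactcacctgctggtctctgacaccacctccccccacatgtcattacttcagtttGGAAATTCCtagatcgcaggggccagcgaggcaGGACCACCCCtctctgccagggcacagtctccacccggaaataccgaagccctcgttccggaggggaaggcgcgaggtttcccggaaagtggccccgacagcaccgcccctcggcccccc
Tnfrsf1a, chr6:125349473-125349722, plus strand: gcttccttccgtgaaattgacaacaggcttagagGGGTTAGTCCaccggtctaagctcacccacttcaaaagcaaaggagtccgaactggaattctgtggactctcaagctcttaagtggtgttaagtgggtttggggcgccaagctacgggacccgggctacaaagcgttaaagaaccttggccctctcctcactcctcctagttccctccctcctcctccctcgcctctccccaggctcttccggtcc
Tnfaip3, chr10:19015411-19015660, minus strand: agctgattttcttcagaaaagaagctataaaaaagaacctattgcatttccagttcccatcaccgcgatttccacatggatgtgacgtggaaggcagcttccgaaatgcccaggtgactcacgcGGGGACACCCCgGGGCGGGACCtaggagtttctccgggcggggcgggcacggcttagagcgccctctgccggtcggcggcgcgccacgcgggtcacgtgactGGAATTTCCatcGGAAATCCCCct
Nfkbia, chr12:55492648-55492897, minus strand: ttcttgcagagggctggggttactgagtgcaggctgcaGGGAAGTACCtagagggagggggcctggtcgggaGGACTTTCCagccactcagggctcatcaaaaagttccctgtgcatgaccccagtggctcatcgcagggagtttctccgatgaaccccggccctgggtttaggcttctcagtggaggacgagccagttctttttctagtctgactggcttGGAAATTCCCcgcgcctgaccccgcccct
Rela, chr19:5637291-5637441, plus strand: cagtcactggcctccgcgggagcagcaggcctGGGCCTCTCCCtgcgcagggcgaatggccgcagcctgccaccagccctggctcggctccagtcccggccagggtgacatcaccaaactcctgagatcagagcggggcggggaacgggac

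All 6 windows held a match to the decamer, as did 50.8% of the 32851 RefSeq windows of the same length. The kappaB consensus, which is the decamer with fixed purines and pyrimidines in part of its middle, was matched in 3 of 6, those of *Nfkb2*, *Nfkbia* and *Tnfaip3*, against 8.46% of all windows. GGAANNTCC was matched in 4 of 6, those of *Icam1*, *Nfkb2*, *Nfkbia* and *Tnfaip3*, against 4.26%. That motif was chosen after the values were seen, so its share is a description of these windows only. Counted from the start as position 0, the *Icam1* match ran from −153 to −145, that of *Tnfaip3* from −24 to −16, and those of *Nfkbia* from −178 to −170 and from −29 to −21. The last of these overlaps a match to the decamer. The GC box GGGCGG was matched in 5 of 6 windows, against 35.7% of all, the AP-1 motif TGANTCA in 2 of 6, against 7.81%, and TATAAA in 3 of 6, against 13.6%. The windows were also richer in G and C, with a median of 62.8% against 52.7%. A match in the letters is a description and says nothing about binding.

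Across the 9 promoter regions of the members, 8 had a log2 ratio below 0 and 1 above 0. Above 0 were 16.1% of all promoter regions. The median was −0.32, against −0.56 over all 14387 promoter regions. At least 2-fold lower was 1 of the 9, that of *Tnfaip3*, beside 16.3% of all promoter regions, and 0 were at least 2-fold higher, beside 4.07%. Neither count is far from the background. Relative to the median of all regions, 5 of 9 lay above 0, beside 33.6% of all promoter regions, with 1 region at least 2-fold higher and 0 lower, beside 6.9% and 5.0%. A peak was called in both libraries in 8 of 9, beside 83.3% of all promoter regions, only in the knockout in 1, beside 8.4%, and only in the control in 0, beside 8.26%.

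**Figure D1:**
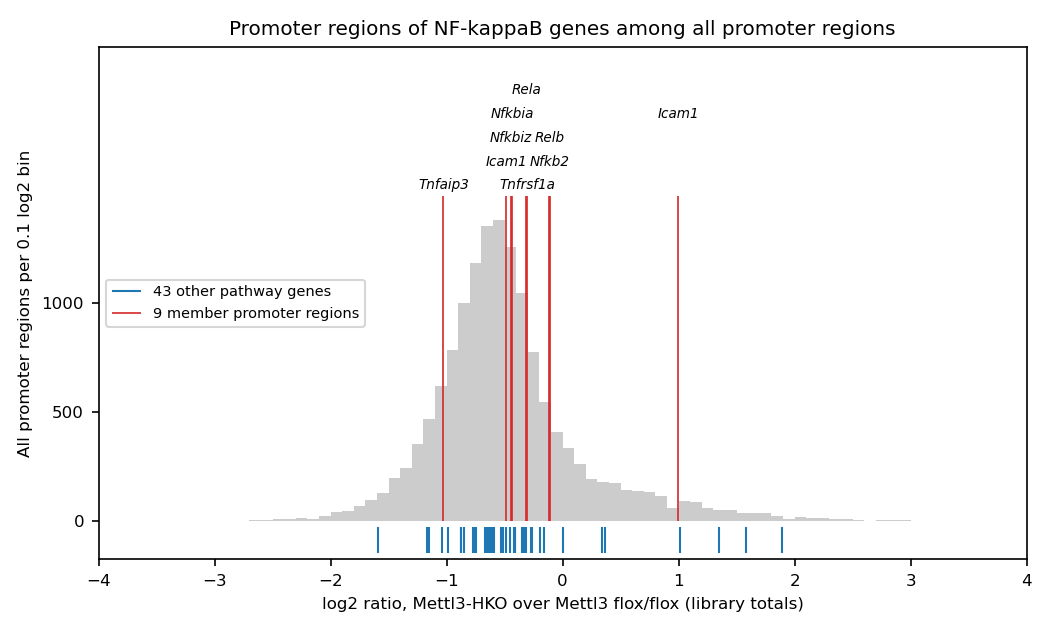
Distribution of the log2 ratio (knockout over control) on the x axis for all promoter regions (grey bars, regions per bin on the y axis, 1 region beyond the axis limits), with the 9 member promoter regions as red lines and 43 other pathway genes as blue ticks. The red lines sit between −0.49 and −0.11 except for *Tnfaip3* at −1.03 and the intron region of *Icam1* at 0.996. Relative to the median of all regions, marked in the plot of the single regions, *Relb*, *Nfkb2*, *Rela* and *Tnfrsf1a* lie above 0.

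Of the NF-kappaB subunits, 3 had a promoter region, and their log2 ratios lay between −0.32 and −0.11. *Relb* encodes RelB, which pairs with p52 in the non-canonical pathway, and its region had 827 and 841 counts, a log2 ratio of −0.11 (−0.25 to 0.03). *Nfkb2*, which encodes the p100 precursor of p52, had 668 and 677 counts, a log2 ratio of −0.12 (−0.27 to 0.04). The RefSeq gene *4833438C02Rik* also covers the centre of this region. *Rela*, which encodes the p65 subunit of the canonical dimer, had 758 and 669 counts, a log2 ratio of −0.32 (−0.47 to −0.16). On the scale of the totals the first 2 could not be told from 0 at this depth. Relative to the median of all regions the signs turned, to 0.27 (0.13 to 0.41) for *Relb*, 0.26 (0.10 to 0.42) for *Nfkb2* and 0.06 (−0.09 to 0.21) for *Rela*. The difference of *Relb* and *Rela*, which does not depend on the scaling, was 0.20 (−0.00 to 0.41).

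Outside the promoters, *Nfkb2* and *Rela* had 1 region each. At 14815 bp upstream of *Nfkb2* counts were 92 and 58, a log2 ratio of −0.79 (−1.30 to −0.31). This was lower than at the *Nfkb2* promoter by a difference of −0.68 (−1.21 to −0.17), but the RefSeq gene *Gbf1* is nearer to the region than *Nfkb2* is. At 11691 bp downstream of the *Rela* TSS they were 354 and 353, a log2 ratio of −0.14 (−0.36 to 0.08) that became 0.24 relative to the median of all regions. It could not be told from the promoter, with a difference of 0.18 (−0.09 to 0.44).

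The regions that the table gave to *Nfkb1*, the gene of the p105 precursor of p50, were both higher in the knockout library. The table places this gene from 135617994 to 135622142 on the minus strand of chromosome 3, whereas RefSeq places it from 135584655 to 135691969, so that both regions lie inside the RefSeq gene. The region 16416 bp downstream of the table's TSS, from 135605517 to 135605935, had 29 and 97 counts, a log2 ratio of 1.57 (0.99 to 2.26), with a peak only in the knockout library. The region 35484 bp downstream, from 135586389 to 135586927, had 147 and 301 counts, a log2 ratio of 0.89 (0.61 to 1.19), with a peak in both. Its ratio was above 82.3% of all non-promoter regions, and the 20% of these regions with the highest signal, to which it belongs, had a median of −0.65.

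Another 5 regions inside the RefSeq gene *Nfkb1* were assigned by the table to a neighbouring gene without a symbol, and are given here after their values were seen. The strongest, from 135690609 to 135692104, reaches 135 bases past the RefSeq end at which this minus-strand gene starts. It had 998 and 858 counts, a log2 ratio of −0.35 (−0.49 to −0.22), which became 0.02 relative to the median of all regions. Of the 4 others, the region from 135658611 to 135659087 had 88 and 184 counts, a log2 ratio of 0.92 (0.55 to 1.31). The region next to it, from 135659492 to 135659710, had 14 and 54 counts, a log2 ratio of 1.74 (0.94 to 2.77). The remaining pair had log2 ratios of 0.29 and −0.09, both with intervals across 0. The regions with 29 and 97 and with 14 and 54 counts had a peak only in the knockout library, which largely fixes their direction, whereas those with 147 and 301 and with 88 and 184 counts had a peak in both libraries.

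Among the inhibitors were the promoter region with the most counts in both libraries, that of *Nfkbia*, and the only promoter region at least 2-fold lower, that of *Tnfaip3*. *Nfkbia* encodes IkappaB-alpha, which retains NF-kappaB in the cytoplasm. Its promoter region had 2317 and 1885 counts, or 36.0 and 26.7 reads per kb and per 1000000 library reads, the highest density of the 39 regions in both libraries. The log2 ratio was −0.43 (−0.52 to −0.35), and −0.06 relative to the median of all regions. *Nfkbiz* encodes IkappaB-zeta, a nuclear member of the inhibitor family that also acts as a coactivator. Its promoter region had 656 and 528 counts, a log2 ratio of −0.45 (−0.62 to −0.28), and −0.07 relative to the median.

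*Tnfaip3* encodes A20, a ubiquitin-editing enzyme that ends NF-kappaB signalling downstream of the TNF receptor. Its promoter region, from 19014587 to 19015899 on chromosome 10 and centred in exon 1, had 1348 and 726 counts. The log2 ratio was −1.03 (−1.16 to −0.90). It stayed below 0 relative to the median of all regions, at −0.65 (−0.78 to −0.52). Of all promoter regions 14.9% had a lower ratio, and the 20% of promoter regions with the highest signal, which include it, had a median of −0.64. The second strong region of the gene, 6122 bp downstream in intron 2, had 592 and 328 counts, a log2 ratio of −0.99 (−1.19 to −0.79), and differed from the promoter by 0.04 (−0.20 to 0.28).

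The *Tnfaip3* promoter was compared with the strongest promoter region of each of the other 7 genes. These differences of log2 ratios do not depend on the scaling of the libraries. *Tnfaip3* was taken because it had the lowest ratio of the 8, so the sign of every difference was fixed by that choice, and only their sizes are described. The difference was −0.92 (−1.11 to −0.72) against *Relb*, −0.91 (−1.12 to −0.71) against *Nfkb2*, −0.72 (−0.97 to −0.47) against *Tnfrsf1a* and −0.71 (−0.91 to −0.51) against *Rela*. Against *Nfkbia* it was −0.60 (−0.75 to −0.44), against *Nfkbiz* −0.58 (−0.79 to −0.37) and against *Icam1* −0.54 (−0.80 to −0.28).

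**Figure D2:**
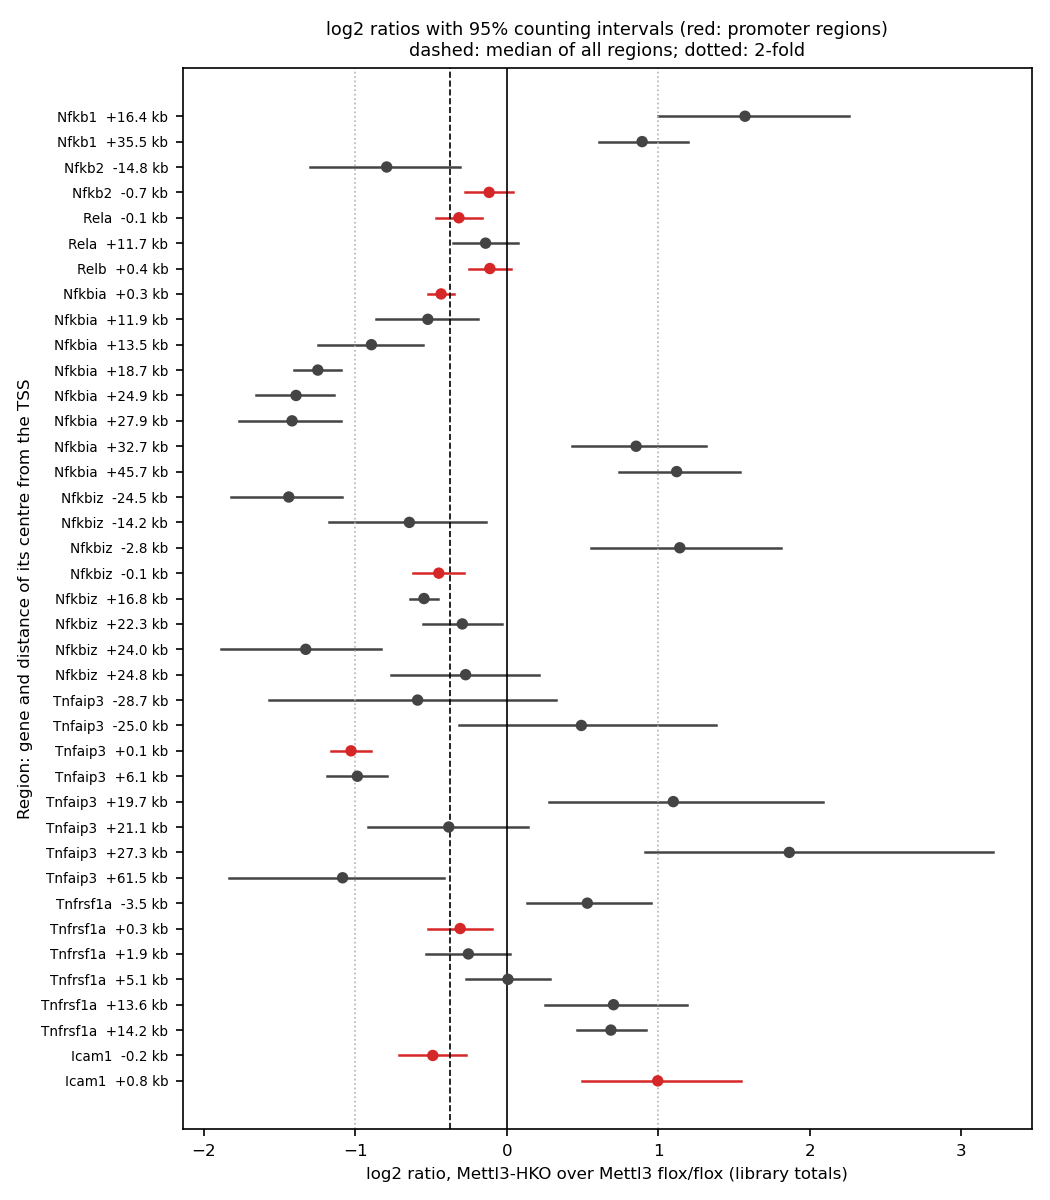
Log2 ratio (knockout over control) on the x axis for each of the 39 regions on the y axis, with 95% counting intervals as bars, promoter regions in red, the median of all regions dashed and 2-fold dotted. Among promoter regions *Tnfaip3* stands lowest, at −1.03, and the *Icam1* intron region highest, at 0.996.

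Outside the promoters the members resembled the other regions of the genome in number. At least 2-fold higher were 5 of 30, beside 15.6% of all 55162 non-promoter regions, and 6 of 30 were at least 2-fold lower, beside 18.8%. The median was −0.28, against −0.27 for all, and 12 of 30 lay above 0, beside 40.2%. Relative to the median of all regions 16 of 30 did, beside 54.3%. On that scale the 2-fold split was 9 higher and 3 lower, beside 23.5% and 8.65%. All 6 of the lower regions belonged to inhibitors, 3 to *Nfkbia*, 2 to *Nfkbiz* and 1 to *Tnfaip3*, but inhibitors also held 21 of the 30 regions and 4 of the 5 higher ones.

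The 7 regions downstream of *Nfkbia* were split by position. No RefSeq gene covers their centres. The nearest, 11886 bp from the TSS, had 174 and 133 counts, a log2 ratio of −0.52 (−0.86 to −0.19), and the next, at 13535 bp, had 190 and 112, a log2 ratio of −0.89 (−1.25 to −0.55). At 18733 bp, from 55473308 to 55474521 on chromosome 12, lay the strongest of them, with 1094 and 506 counts and a log2 ratio of −1.25 (−1.40 to −1.09). The regions at 24865 bp and 27875 bp followed with 438 and 183 counts, a log2 ratio of −1.39 (−1.65 to −1.14), and with 259 and 106 counts, a log2 ratio of −1.42 (−1.76 to −1.09). All 5 were lower in the knockout library, and only that at 11886 bp had an interval across 0 relative to the median of all regions.

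Farther out the direction was the opposite. The region at 32718 bp had 66 and 132 counts, a log2 ratio of 0.85 (0.43 to 1.31), and that at 45730 bp, from 55446646 to 55447188, had 76 and 183 counts, a log2 ratio of 1.12 (0.74 to 1.54). The RefSeq gene *Gm36571* is nearer to these last 2 regions than *Nfkbia* is. Set against the *Nfkbia* promoter, the differences ran from −0.09 (−0.44 to 0.26) at 11886 bp to −0.81 (−0.99 to −0.64) at 18733 bp and −0.99 (−1.34 to −0.65) at 27875 bp, and were 1.30 (0.85 to 1.76) and 1.57 (1.16 to 1.98) at the 2 outer regions. The region at 27875 bp had a peak only in the control library, which largely fixes its direction, and the other 6 had a peak in both libraries. Among these 6, the regions at 13535 bp, 18733 bp and 24865 bp had a lower ratio than the promoter and those at 32718 bp and 45730 bp a higher one, whatever the scaling.

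Around *Nfkbiz* the strongest region was not the promoter but a region in intron 2, from 55821506 to 55822734 on chromosome 16, with 2269 and 1707 counts. Its log2 ratio of −0.55 (−0.64 to −0.46) differed from that of the promoter by −0.10 (−0.29 to 0.09), and its signal was above 99.9% of non-promoter regions. The region in intron 11 had 104 and 45 counts, a log2 ratio of −1.33 (−1.88 to −0.83), with a peak only in the control library. Those in introns 8 and 12 had 260 and 233 counts and 77 and 70 counts, with log2 ratios of −0.29 and −0.27 that changed sign relative to the median of all regions. The 3 regions upstream lie in the neighbouring gene *Nxpe3*. The one at 24521 bp had 221 and 89 counts, a log2 ratio of −1.44 (−1.82 to −1.09), the lowest of the 39 regions. That at 2777 bp, in the *Nxpe3* 3′ UTR and with a peak only in the knockout library, had 32 and 79 counts, a log2 ratio of 1.14 (0.56 to 1.81), and that at 14242 bp had 80 and 56, a log2 ratio of −0.64 (−1.17 to −0.14).

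The distal regions of *Tnfaip3* were weak. At 27298 bp downstream 9 and 39 counts gave a log2 ratio of 1.86 (0.91 to 3.21), the highest of the list, and at 19659 bp 16 and 39 counts gave 1.10 (0.28 to 2.09). Both had a peak only in the knockout library. At 61508 bp 53 and 27 counts gave −1.08 (−1.83 to −0.41), with a peak only in the control library. The other 3, at 21118 bp downstream and at 24952 bp and 28697 bp upstream, had 18 to 69 counts and intervals across 0. The 20% of non-promoter regions with the lowest signal, which hold 4 of these regions, had a median log2 ratio of 0.56.

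**Figure D3:**
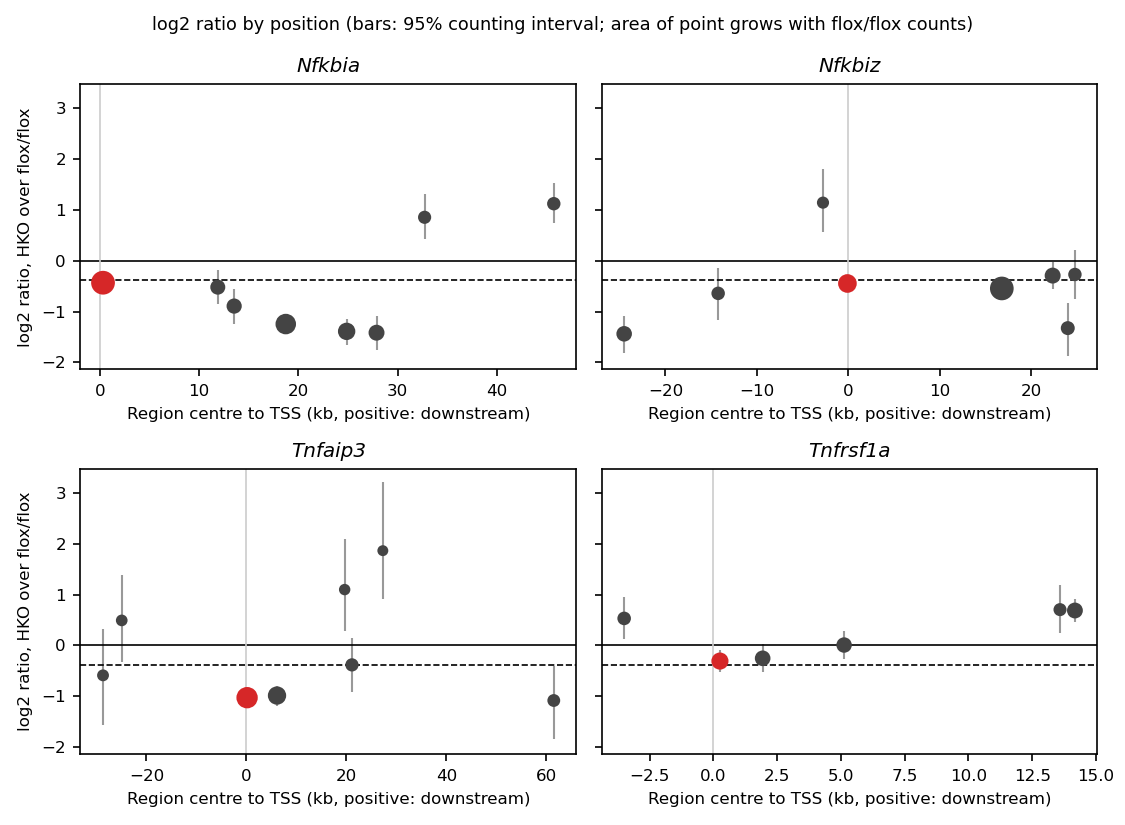
Log2 ratio, knockout over control (y axis), against the distance of the region's centre from the TSS in kb (x axis) for *Nfkbia*, *Nfkbiz*, *Tnfaip3* and *Tnfrsf1a*, with 95% counting intervals, promoter regions in red and the median of all regions dashed. Downstream of *Nfkbia* 5 regions lie between −0.52 and −1.42 and the 2 farthest at 0.85 and 1.12, while at *Tnfrsf1a* the regions 3500 bp upstream and at 13588 bp and 14173 bp lie at 0.53, 0.70 and 0.69 and the promoter at −0.31.

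Of the 30 non-promoter regions, 19 had a peak in both libraries, beside 56.1% of all, 6 only in the knockout library, beside 24.9%, and 5 only in the control library, beside 19.1%. A peak called in a single library largely fixes the direction of the ratio, so the ratios of those regions are given as a description. Among the 19 with a peak in both, the median log2 ratio was −0.38, against −0.40 over all such regions. At 1 region of *Tnfrsf1a*, described next, the peak was called only in the library with the fewer counts.

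*Tnfrsf1a* encodes TNF receptor 1, through which TNF activates the pathway. Its promoter region, centred in the 5′ UTR, had 400 and 355 counts, a log2 ratio of −0.31 (−0.52 to −0.10), and 0.07 relative to the median of all regions. Just outside the promoter limit, at 1930 bp in intron 1, counts were 229 and 211, a log2 ratio of −0.25 (−0.53 to 0.02), and at 5123 bp in the same intron they were 209 and 231, a log2 ratio of 0.01 (−0.27 to 0.29). The other 3 regions had more counts in the knockout library. At 3500 bp upstream counts were 84 and 134, a log2 ratio of 0.53 (0.13 to 0.95), with a peak only in the knockout library, which largely fixes that direction. The RefSeq gene *Scnn1a* is nearer to this region than *Tnfrsf1a* is. Past the end of *Tnfrsf1a*, in exon 16 and intron 15 of *Plekhg6*, 61 and 110 counts at 13588 bp gave 0.70 (0.25 to 1.19), with a peak only in the control library, and 250 and 443 counts at 14173 bp gave 0.69 (0.46 to 0.92). Against the promoter of *Tnfrsf1a* these 3 regions differed by 0.85 (0.39 to 1.31), 1.02 (0.51 to 1.54) and 0.998 (0.69 to 1.31).

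The adhesion genes are classical targets of NF-kappaB. *Icam1* encodes a ligand of leukocyte integrins that is found on liver sinusoidal endothelium and, on induction, on hepatocytes. Its region at the TSS, from 21015344 to 21016178 on chromosome 9, had 382 and 299 counts, a log2 ratio of −0.49 (−0.71 to −0.27), and −0.11 relative to the median of all regions with an interval across 0. Its second promoter region, just inside the promoter limit at 760 bp in intron 1, from 21016604 to 21016887, had 46 and 102 counts, with a peak only in the knockout library. The log2 ratio was 0.996 (0.50 to 1.55), a 1.99-fold difference that stays just short of 2-fold. Of all promoter regions 95.9% had a lower ratio, but this is a weak region, and the 20% of promoter regions with the lowest signal had a median of −0.03. The regions of *Icam1* differed from each other by 1.502 (0.93 to 2.08), a value that does not depend on the scaling but whose direction is largely fixed by the peak called only in the knockout library. Per length, the knockout library had 6.19 reads per kb and per 1000000 library reads in the intron and 6.17 at the TSS, whereas the control library had 3.07 and 8.66.

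*Vcam1* encodes a ligand of the integrin VLA-4 on activated endothelium. RefSeq places it from 116110020 to 116129688 on chromosome 3, and 3 weak regions there were assigned by the table to a gene without a symbol. The region over the upper end of the gene, from 116129576 to 116129775, had 38 and 35 counts, a log2 ratio of −0.25 (−0.96 to 0.45). The regions from 116129199 to 116129435 and from 116126588 to 116126787 had 30 and 36 counts, a log2 ratio of 0.12 (−0.61 to 0.88), and 32 and 33 counts, a log2 ratio of −0.09 (−0.84 to 0.66). A difference of the libraries was not detectable at this depth.

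**Figure D4:**
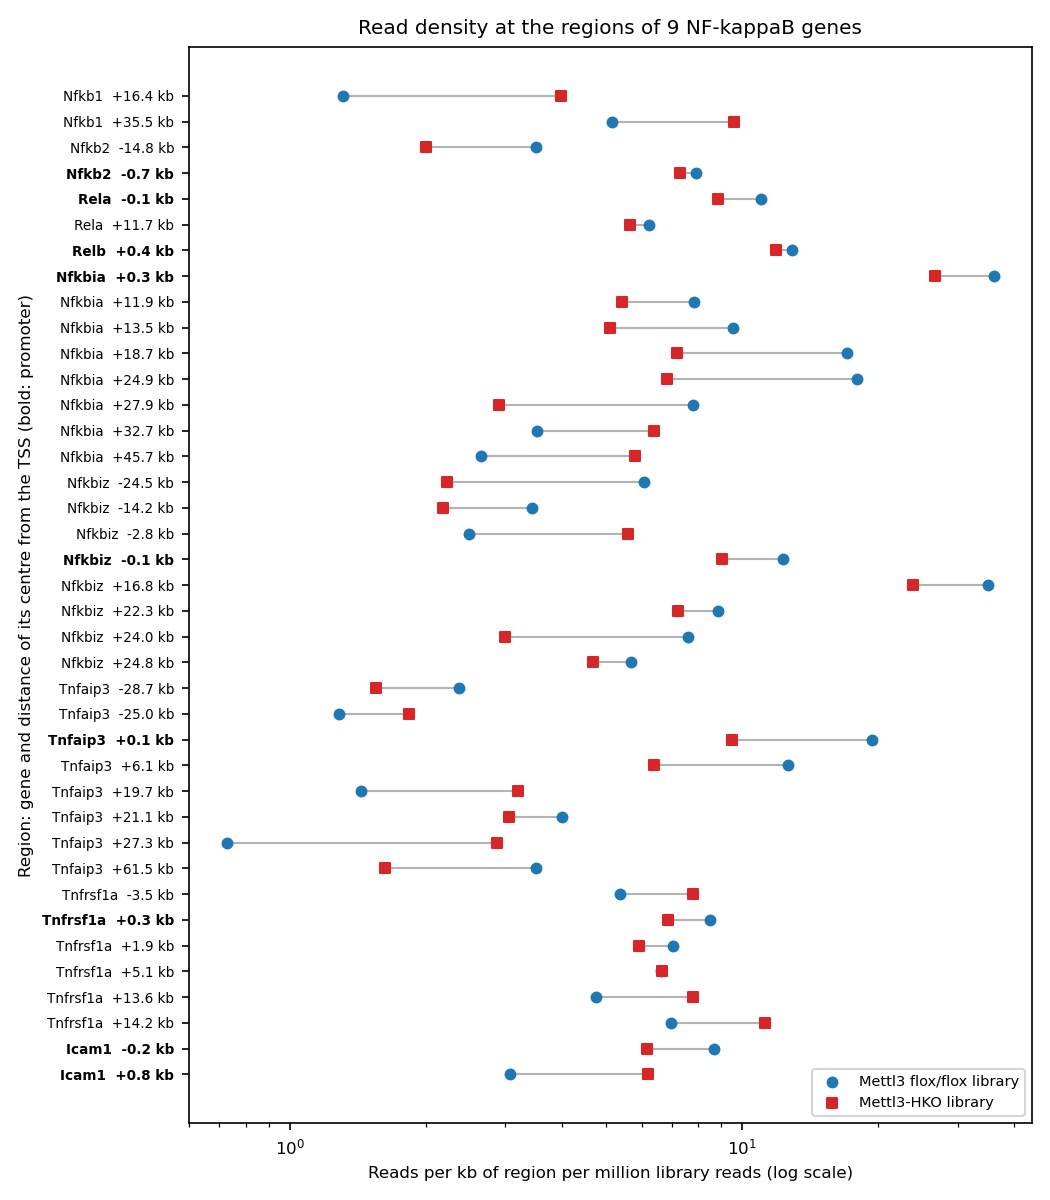
Reads per kb of region and per 1000000 library reads (x axis, log scale) in the control library (blue circles) and the knockout library (red squares) for the 39 regions on the y axis, with promoter regions in bold. The *Nfkbia* promoter is densest, at 36.0 and 26.7, and the intron 2 region of *Nfkbiz* follows, at 34.9 and 23.9.

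Markers of other cell types were read in the same way, with the strongest promoter region of each gene. Of 8 endothelial markers, 7 had a promoter region, none at 0 counts (*Pecam1* had no promoter region), log2 ratios from 0.14 to 1.78 and a summed level of 2.90 RPM (reads per 1000000 library reads) in the control library and 6.89 in the knockout library. For macrophage markers it was 2 of 8, with 1.003 and 1.93 RPM. Of these regions, 5 of the 7 endothelial and 2 of the 2 macrophage ones had a peak only in the knockout library, so they entered the table through the library in which they are high, and their direction is largely fixed by that. Hepatocyte markers, 8 of 8, summed to 69.1 and 46.6 RPM, with log2 ratios from −1.32 to 0.02 and a median of −0.65, near the −0.56 of all promoter regions. Stellate markers (3 of 8) had log2 ratios from −2.51 to 0.08. Their median of −1.05 was the value of *Col1a2*, a weak region (31 and 16 counts) with a peak only in the control library. Cholangiocyte markers (5 of 8) had a median of −0.19, and lymphocyte markers had 0 of 8. Outside promoters the same lists were read over every region. Endothelial genes had 24 such regions (29.97 and 34.4 RPM), with a median log2 ratio of 0.82 and 17 above 0, beside a median of −0.27 over all non-promoter regions. Of the 24, 11 had a peak only in the knockout library. The 12 with a peak in both summed to 24.6 and 21.3 RPM, with a median of 0.08 and 6 above 0. Over all non-promoter regions with a peak in both the median was −0.40. Macrophage genes had 9 (16.7 and 9.11 RPM), with a median of 0.10 and 5 above 0, and the 3 with a peak in both also had a median of 0.10. Of the 9, only 1 was at least 2-fold lower, with a log2 ratio of −5.97, and those with a peak in both summed to 5.40 and 5.91 RPM. The lower sum in the knockout outside promoters was thus not shared by most macrophage regions. Lymphocyte genes had 4 (15.9 and 7.68 RPM), with a median of −0.60, and stellate genes had 2 (1.06 and 1.83 RPM), with a median of 0.80. Cholangiocyte genes had 17, with a median of −0.25, and hepatocyte genes had 56, with a median of −0.53. The *Icam1* intron region had a peak only in the knockout library, as had 5 of the 7 endothelial promoter regions and 11 of the 24 other endothelial regions. The part of cell composition in its value was not tested.

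Beyond the members, 43 of 60 other genes of the pathway had a promoter region. With the strongest region per gene, 4 passed 2-fold upward and 4 downward in the knockout, beside the 4.07% and 16.3% of all promoter regions given above, and their median log2 ratio was −0.51. Relative to the median of all regions the split was 4 and 1, beside 6.9% and 5.0% of all promoter regions. Log2 ratios were below 0 in 12 of 13 adaptors and kinases (9 relative to the median of all regions), 9 of 11 targets (8), 6 of 6 receptors (3), 5 of 7 inhibitors (4), 2 of 3 ligands (2), 1 of 2 adhesion genes (0) and the subunit gene *Rel* (also below 0 on both scales). Over all promoter regions 16.1% lay above 0 and the median was −0.56, so these shares are near the background. The group medians were −0.61 for adaptors and kinases, −0.53 for targets, −0.37 for receptors and −0.41 for inhibitors. Of the 43 genes, 36 were below 0 on the scale of the totals and 27 relative to the median of all regions, where 16 lay above 0, beside 33.6% of all promoter regions.

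The lowest of these genes were *Cd40lg*, the ligand of CD40 on T cells, with 76 and 27 counts and a log2 ratio of −1.60 (−2.32 to −0.98), and *Il1r1*, the receptor of interleukin-1, with 502 and 244 counts and −1.17 (−1.40 to −0.95). *Irak4*, a kinase of the interleukin-1 and Toll-like receptors, followed with 1119 and 551 counts and −1.16 (−1.31 to −1.01), and *Tnip2*, a partner of A20, with 856 and 457 counts and −1.04 (−1.21 to −0.88). All 4 remained below 0 relative to the median of all regions, from −1.22 to −0.66, where *Cd40lg* was at least 2-fold lower. The *Cd40lg* peak was called only in the control library, which largely fixes its direction, and the other 3 had a peak in both.

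The highest were weak regions in the control library, and all 4 had a peak only in the knockout library, which largely fixes their direction. *Icam2*, an adhesion molecule of endothelium, had 14 and 60 counts, a log2 ratio of 1.89 (1.11 to 2.92), and *Il1a*, the gene of interleukin-1 alpha, had 16 and 55, a log2 ratio of 1.58 (0.82 to 2.55). *Ccl2*, a chemokine gene and NF-kappaB target, had 14 and 41 counts, a log2 ratio of 1.35 (0.51 to 2.40), and *Nfkbid*, which encodes a nuclear inhibitor, had 36 and 81, a log2 ratio of 1.01 (0.45 to 1.64). Among the members, only the *Icam1* intron region was a promoter region with so few counts in the control library, 46, and its peak too was called only in the knockout library.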

How the data were processed

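ATAC-seq of 1 Mettl3 flox/flox and 1 Mettl3-HKO liver library was used, each from 4 pooled mice. The authors trimmed adaptors with skewer, aligned reads with BWA to GRCm38, filtered alignments by quality, pairing and chromosome (no mitochondrial reads), and ran MACS2 on each library with duplicates retained. The merging and counting of regions, and any Tn5 shift of reads, are not given in the sources used here. The authors deposited raw counts per region, RPM values, a fold enrichment (ratio of read density in the region to that of the genome) and a log2 ratio of the libraries. The last is a comparison of the authors and was not used, nor was the fold enrichment. Library totals were recovered from the RPM values, which equal the count plus 1 scaled by the total.

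Of 74821 rows, 5272 repeated a region and were left out. Starts were converted to count from 1, and promoter windows came from RefSeq (GRCm38.p6). Members were matched by symbol. With 1 library per group no test was made. A region was called at 2-fold, and differences between regions are log2 odds ratios of the counts with 95% conditional exact intervals, for counting error only. Kept duplicate reads make counts less independent than these intervals assume. The median region had 85 and 81 counts. The 10 members were named in full, with the 4 highest and 4 lowest other pathway genes among those with a mean of 20 or more counts. Members and lists were chosen with earlier results of these data known, and the motif GGAANNTCC and the compared pairs after the values were seen. Ratios and intervals were tested on simulated data, drawn with counting error only and no shift between the libraries. The intervals assume just such counts, so this checks the calculation and not how well they cover real data. Scripts ran in Python 3.11.15 with scipy 1.17.1, pandas 2.3.3, numpy 2.4.6 and matplotlib 3.10.9.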

Additional observations from a re-analysis of the deposited data

How the results depend on the processing

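No paired analysis was possible because each group has 1 library. For the same reason no library could be left out, and depth limits the weak distal regions most. Centred on the median of all regions, 1 member promoter region was at least 2-fold higher and 0 lower, against 0 and 1 on the scale of the totals. The other regions gave 9 higher and 3 lower, against 5 and 6, 1 other pathway gene was lower, against 4, and the medians were 0.062 for promoter and 0.095 for other regions of the members, against −0.32 and −0.28. Centred on the strongest 10% of promoter regions, these were 1 and 0 promoter regions, 11 and 0 other regions, 0 pathway genes lower, and medians of 0.33 and 0.36. Scaled by the counts in regions, they were 1 and 0, 11 and 0, 1 pathway gene lower, and medians of 0.20 and 0.23. These scalings shift every ratio alike by construction. Shares over all regions were not computed for the strongest-promoter scaling or for the scaling by counts in regions. The counts under those scalings thus have no background and are not read as a result about the members. Under the median, strongest-promoter and counts-in-regions scalings, 4, 7 and 7 of 9 member promoter ratios changed sign, and of the others 4, 9 and 5 of 30. A ratio of at least 2-fold could not change sign, because each scaling shifts the ratios by less than 2-fold. With 0.5 reads added, 1 member promoter region was at least 2-fold higher, and with 10 reads added 3 other regions and 2 pathway genes were. At 1.5-fold, 1 promoter region was higher, 9 other regions were higher and 11 lower, and 20 pathway genes were lower. The share of all regions past 1.5-fold was not computed, so these counts have no background and are not read as a result. The promoter median was −0.43 within 500 bases of the TSS and −0.37 with the strongest region per gene. A filter at a mean of 20 counts removed none of the 9, 30 and 43 regions, so it tests nothing here. With a window of 2000 bases 5 pathway genes were lower, against 4, and the medians were −0.31 and −0.29. With the regions at the RefSeq ends of *Nfkb1* and *Vcam1*, added after seeing the data, the promoter median was −0.31 and the counts were 0 higher and 1 lower.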
